A study of Mus musculus with 6 samples.

Results

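The 39 protein-coding Hox genes of the mouse were followed in kidney endothelial cells. They were chosen by gene symbol and biotype alone, as every protein-coding gene named Hoxa, Hoxb, Hoxc or Hoxd with a paralog number, from the 55487 genes measured (21936 of them protein-coding). Cluster A on chromosome 6 holds 11 members, cluster B on chromosome 11 holds 10, and clusters C on chromosome 15 and D on chromosome 2 hold 9 each. On GRCm38, the build of the deposited coordinates, cluster A lies on the minus strand. On the plus strand, Hoxb13 to Hoxb1 span chr11:96194316-96368256, Hoxc13 to Hoxc4 chr15:102921103-103036852 and Hoxd13 to Hoxd1 chr2:74668310-74765142.

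Hox proteins are homeodomain transcription factors whose genes sit in clusters, in an order that matches where along the head-to-tail axis they are switched on in the embryo. Genes with low paralog numbers, at the 3′ end of a cluster, are active far forward, and those with high numbers, at the 5′ end, are restricted to the rear of the body. Adult cells keep much of this code, so the set of active Hox genes carries a record of body position. In the kidney the group 11 genes are needed for the early metanephros, and several central and posterior genes act in ureteric bud, stroma or vessels.

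RNA was measured in 1 library from each of 6 mice on a high-fat diet, with 60% of energy from fat, begun at 8 weeks of age and kept up for 4 weeks. The 3 I-PpoI mice carried VE-cadherin Cre together with a ROSA26-STOP-I-PpoI allele, so that I-PpoI, an endonuclease that makes double-strand breaks in DNA, was to be switched on in cells with endothelial Cre activity. The genotype labels number the Rosa locus differently in the 3 I-PpoI mice. The 3 control mice were wild-type littermates, which carried neither element per the labels. Cells were selected from collagenase-digested whole kidney with an antibody to CD31 (Pecam1). The values are FPKM, fragments scaled to the exon length of the gene and to the fragments counted in the library, so levels can be set beside each other between genes.

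The libraries were uneven. Whole fragments, worked back from FPKM and exon length, numbered 1590957, 834149 and 13324303 in I-PpoI mice 1, 2 and 3, against 14081222 to 16954480 in controls. Mitochondrial genes took 6.42%, 38.2% and 48.2% of fragments in I-PpoI mice 1, 2 and 3, against 8.83 to 18.3% in controls. The minus-strand share of those mitochondrial fragments was 68.2%, 70.6% and 0.0821% in the 3 I-PpoI mice, against 0.0473 to 0.0664% in controls. The 12 endothelial markers, none of them at 0 in any library, summed to 1883, 650 and 1235 FPKM in I-PpoI mice and to 2567, 2722 and 2435 FPKM in controls. Proximal tubule markers summed to 317, 776 and 1760 FPKM in I-PpoI mice and to 791, 1508 and 919 FPKM in controls, so RNA of other kidney cells was present as well. Aqp1, at 169, 151 and 288 FPKM in I-PpoI mice against 407, 447 and 604 FPKM in controls, weighs on these sums. So does Kap, at 11.5, 25.3 and 710 FPKM in I-PpoI mice against 134, 755 and 165 FPKM in controls. Gene by gene, the median log2 fold change of I-PpoI over control was 0.48, with 3 of the 12 below 0. Ddx3y, on the Y chromosome, had 20, 0 and 0 fragments in I-PpoI mice, against 959 to 1672 in controls. The transcript Xist, made from the inactive X chromosome, had 0, 70 and 4739 in I-PpoI mice against 0 to 4 in controls. Group, sex-linked expression and library quality cannot be told apart here, and in such bulk samples neither can fewer cells of a type and less RNA per cell. The control libraries are therefore the main evidence on the Hox code.

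Sequences of the microRNAs encoded inside the clusters are shown first, because they are known to pair with transcripts of neighbouring Hox genes and are part of the same positional code. The mature sequences are from RefSeq on GRCm38.p6, 5′ to 3′, with the seed (bases 2 to 8, which select targets) in capitals.
miR-10a-5p: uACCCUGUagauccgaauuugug
miR-10b-5p: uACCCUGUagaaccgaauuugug
miR-196a-5p: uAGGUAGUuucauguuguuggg
miR-196b-5p: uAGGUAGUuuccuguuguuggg
The miR-10 pair share a seed and differ by U12A, and the miR-196 pair share another seed and differ by A12C, both counted from the 5′ end with the a form first. Mir10a lies between Hoxb4 and Hoxb5, Mir10b inside the Hoxd4 locus, Mir196a-1 beyond Hoxb9, Mir196b inside the Hoxa9 locus and Mir196a-2 between Hoxc9 and Hoxc10.

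The complement of the miR-196 seed, ACTACCT, was searched on the transcript strand in the longest annotated 3′ UTR of each gene. It occurred in 9 of 39 Hox 3′ UTRs (23.1%), against 6.1% of 21025 protein-coding genes, and the median UTR length was 966 bases for Hox genes and 961 for all. Hoxa7 held 4 such sites and Hoxc8 held 2, and Hoxa4, Hoxa5, Hoxa9, Hoxb1, Hoxb6 and Hoxb7 were among those with 1. The miR-10 match, ACAGGGT, occurred in 4 Hox 3′ UTRs (10.3%), among them Hoxa3, Hoxb3 and Hoxd1, against 12.5% of all genes. Stretches of 22 bases aligned to miR-196a without gaps were taken from the GENCODE transcripts on GRCm38, with the bases that pair in capitals. Only A with U and G with C were counted as pairs, so a G opposite a U is in lower case. They were picked because Hoxb8 is the known case of near-complete pairing, Hoxd8 came next among Hox genes, Hoxa7 had the most seed matches and Hoxb7 had 1.
Hoxb8: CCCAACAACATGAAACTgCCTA
Hoxd8: CtCAACAACATaAActTcCtaA
Hoxa7: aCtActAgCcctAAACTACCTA
Hoxb7: CtgtAaAAaAatAtACTACCTA
In Hoxb8 21 of 22 bases pair by this count, and the remaining base is a G opposite a U of the microRNA seed. Its seed match is therefore not ACTACCT, and Hoxb8 is not among the 9 genes with that match. Of 20916 3′ UTRs long enough to be searched, only that of Hoxb8 reached 21 paired bases. The Hoxd8 stretch pairs at 15 bases, a number that 4.42% of UTRs reach, and the Hoxa7 stretch at 14, which 20.2% reach. A match is a description of letters, not evidence that the microRNA acts there.

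The hairpin genes were barely sampled by this library type, whose fragments are longer than a mature microRNA. Mir196a-1 had 0, 0 and 24 fragments in I-PpoI mice 1, 2 and 3 and 25, 7 and 34 in controls. Mir10a had 1, 0 and 4 in I-PpoI mice and 32, 1 and 12 in controls. Mir10b, Mir196b and Mir615 had 0 in all 6 libraries, and Mir196a-2 had 1 fragment, in control mouse 1. These counts describe precursor or host transcripts at best, and mature microRNA was not measured.

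In control mice the Hox code of the CD31-selected kidney cells was broad and, by summed FPKM, centred on cluster B and on paralog groups 6 to 9. Of the 39 genes, 25 had a control mean of at least 1 FPKM (64.1%, against 52.4% of all protein-coding genes) and 12 had at least 10 FPKM. Another 7 lay between 0 and 1 FPKM, and 7 were at 0 in all 6 libraries. Genes at 1 FPKM or more numbered 8 of 11 in cluster A, 8 of 10 in B, 5 of 9 in C and 4 of 9 in D.

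**Figure D1:**
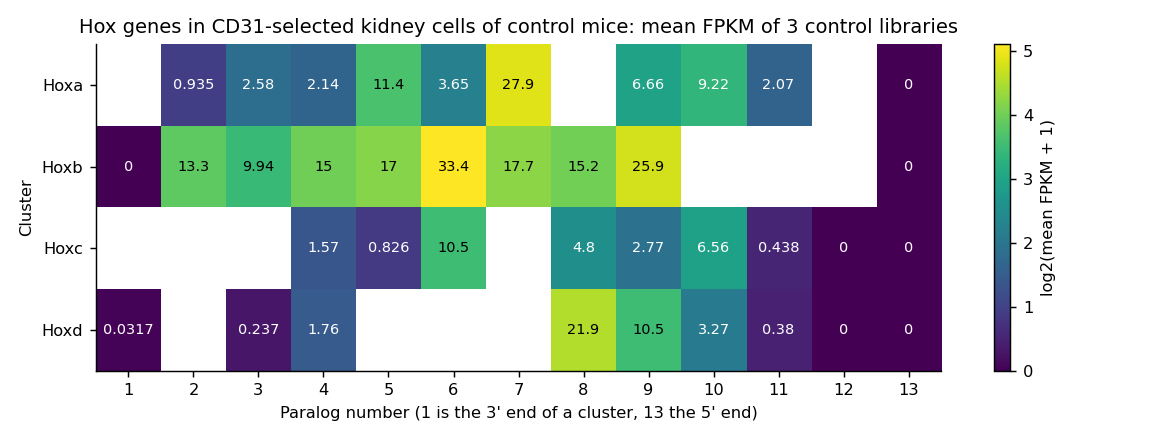
Mean FPKM over 3 control libraries for Hox genes, with the cluster down the side and the paralog number along the bottom. Colour is log2(mean FPKM + 1), the printed number is the mean FPKM, and white squares carry no value. The row of cluster B is filled from Hoxb2 to Hoxb9 at 9.94 to 33.4 FPKM, and each row goes dark at its 5′ end.

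The posterior limit was similar in the 4 clusters, although cluster B has no member between Hoxb9 and Hoxb13 that could move its limit. The gene furthest to the 5′ end with at least 1 FPKM was Hoxa11, Hoxb9, Hoxc10 and Hoxd10 in clusters A to D. Beyond them, Hoxc11 averaged 0.438 ± 0.126 FPKM and Hoxd11 0.380 ± 0.249 FPKM in controls (SD, n = 3). The 2 members of group 12 and the 4 of group 13 were at 0 in every library: Hoxc12, Hoxd12, Hoxa13, Hoxb13, Hoxc13 and Hoxd13. A count of 0 allows up to 3 fragments, which is 0.0698 to 0.207 FPKM for these genes in the controls, and it covers counting error only. These are the genes of the tail end, cloaca and limb tips, and none was detected at this depth.

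At the anterior end, several genes were low or at 0. Hoxb1, a hindbrain gene, was at 0 in all 6 libraries, and Hoxd1 had 3 fragments, all in control mouse 3. Hoxa2 averaged 1.63 ± 1.07 FPKM in I-PpoI mice and 0.935 ± 0.265 FPKM in controls. Hoxb2, directly beside Hoxb1, was far higher at 13.3 ± 1.32 FPKM in controls (n = 3 each). The change from an unexpressed gene to an expressed neighbour thus fell between Hoxb1 and Hoxb2 in cluster B. Other low genes were Hoxc5 at 0.826 ± 0.503 FPKM and Hoxd3 at 0.237 ± 0.182 FPKM in controls.

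Summed by cluster, cluster B held 53.0 ± 4.21% of Hox FPKM in controls, cluster A 23.8 ± 0.935%, cluster D 13.5 ± 1.10% and cluster C 9.65 ± 2.87% (SD, n = 3). By paralog number, groups 4 to 8 held 65.9 ± 1.65%, groups 9 to 13 held 24.3 ± 1.44% and groups 1 to 3 held 9.79 ± 0.298%. The last share rests on Hoxa3, Hoxb2 and Hoxb3, whose exons all overlap opposite-strand gene models. Over members with no such overlap it was 0.484%, but that set leaves out these same genes, so the drop follows from the choice. It does not show how much of their signal came from the other strand. Among single paralog groups, group 6 summed to 47.6 ± 10.3 FPKM, group 9 to 45.8 ± 0.869 FPKM and group 7 to 45.6 ± 8.41 FPKM. Group 8 summed to 41.8 ± 5.45 FPKM. Control ranges overlap among these 4, so no order among them can be given. Group 5 summed to 29.2 ± 2.85 FPKM, group 4 to 20.4 ± 6.19 FPKM and group 10 to 19.1 ± 1.78 FPKM. Group 11 summed to only 2.89 ± 1.30 FPKM. Control ranges of groups 4 and 5 overlap. The group sums run over 2 members in group 7, 3 in groups 5, 6, 8, 10 and 11, and 4 in groups 4 and 9.

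**Figure D2:**
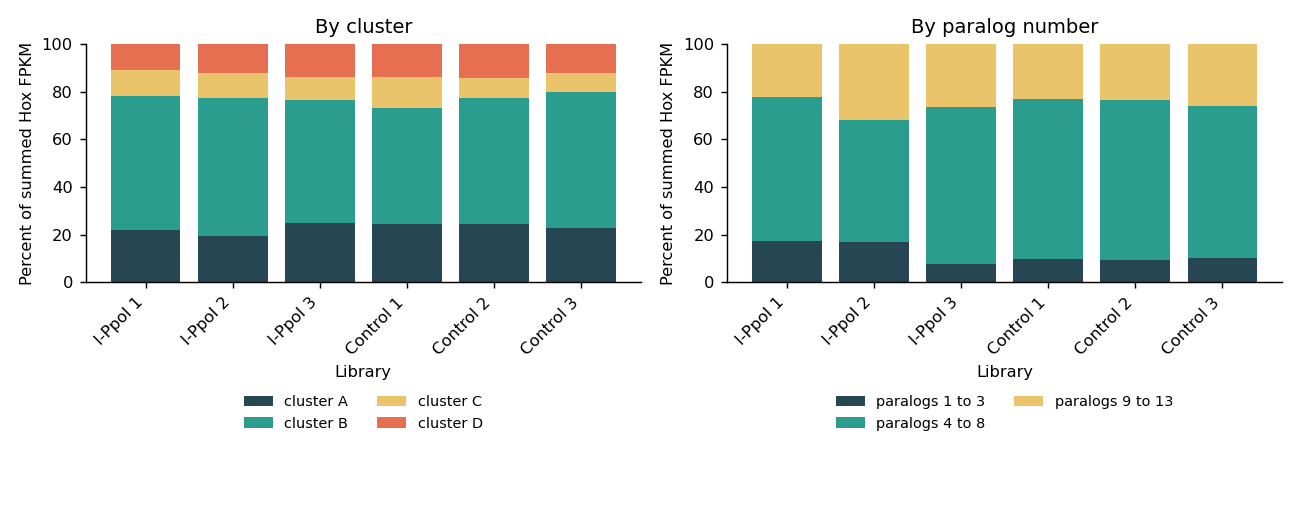
Share of the summed Hox FPKM of each library, in percent, taken by each cluster (left) and by each range of paralog numbers (right), I-PpoI mice before control mice. In I-PpoI mice 1 and 2 paralogs 1 to 3 take 17.4% and 16.9%, against 9.47 to 10.1% in controls.

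In I-PpoI mice the cluster shares were close to these, at 55.3 ± 3.49% against 53.0 ± 4.21% in controls for cluster B and at 22.03 ± 2.93% against 23.8 ± 0.935% in controls for cluster A (n = 3 each). The anterior share differed more between libraries. Groups 1 to 3 held 17.4%, 16.9% and 7.47% of Hox FPKM in I-PpoI mice 1, 2 and 3, against 9.85%, 9.47% and 10.1% in control mice 1, 2 and 3. I-PpoI mice 1 and 2 lay above every control and I-PpoI mouse 3 lay below every control. The opposite-strand models over the exons of these anterior genes were also high in I-PpoI mice 1 and 2, and their part in the share was not tested.

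The anterior genes at 1 FPKM or more were Hoxa3, Hoxb2 and Hoxb3. Hoxb2, a hindbrain and pharyngeal arch regulator, measured 27.9, 12.7 and 5.36 FPKM in I-PpoI mice 1, 2 and 3, against 13.4, 14.6 and 12.0 FPKM in control mice 1, 2 and 3. Hoxb3, which promotes capillary formation in cultured endothelial cells, came to 22.7, 20.5 and 5.01 FPKM in I-PpoI mice, against 12.0, 8.58 and 9.30 FPKM in controls. Both genes were steady in controls, and I-PpoI mice 1 and 3 lay on opposite sides of the control range. Hoxa3, needed for thymus and parathyroid development, measured 1.66, 0.397 and 1.62 FPKM in I-PpoI mice, against 3.09, 2.02 and 2.63 FPKM in controls, with no overlap between the groups. Its value in I-PpoI mouse 2 rests on 2 fragments.

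Group 4 genes ranged widely. Hoxb4, known for expanding blood stem cells, came to 21.1, 10.2 and 9.01 FPKM in I-PpoI mice, against 19.0, 12.4 and 13.5 FPKM in controls. Hoxa4 measured 3.52, 1.498 and 1.27 FPKM in I-PpoI mice, against 2.83, 2.32 and 1.26 FPKM in controls. The groups overlapped for both, and Hoxb4 was the higher of this pair in each library. Hoxc4 came to 2.19, 1.39 and 1.58 FPKM in I-PpoI mice, against 2.84, 0.996 and 0.873 FPKM in controls. Hoxd4 measured 1.27, 0.810 and 0.891 FPKM in I-PpoI mice, against 2.90, 1.21 and 1.18 FPKM in controls. In both of these, control mouse 1 lay far above the other controls. Hoxd4 shares 52.3% of its exon bases with same-strand models, among them Hoxd3, which itself shares 62.3%, so the split of reads between those genes is uncertain. Same-strand overlaps of 1.52 to 15.04% of exon bases also touch Hoxa2, Hoxa3, Hoxa9, Hoxc5, Hoxc10, Hoxd10 and Hoxd11.

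Groups 5 and 6 held the gene with the highest control mean. Hoxb6, a gene of lateral plate mesoderm in the embryo, came to 41.9, 27.3 and 20.6 FPKM in I-PpoI mice, against 35.8, 35.3 and 29.1 FPKM in controls. Hoxb5, an activator of the VEGF receptor gene Kdr in endothelial precursors, measured 9.40, 10.7 and 9.29 FPKM in I-PpoI mice, against 16.9, 16.4 and 17.7 FPKM in controls. Of the 25 genes, Hoxb5 had the smallest spread among controls, with a coefficient of variation of 3.72%, and all 3 I-PpoI libraries lay below every control. Hoxa5, which restrains angiogenesis in human endothelial cells, came to 17.9, 4.45 and 6.60 FPKM in I-PpoI mice, against 14.2, 10.8 and 9.30 FPKM in controls. Hoxa6 measured 7.13, 2.73 and 5.58 FPKM in I-PpoI mice, against 5.59, 0.894 and 4.46 FPKM in controls. Hoxc6 came to 13.7, 2.48 and 5.45 FPKM in I-PpoI mice, against 17.8, 7.88 and 5.88 FPKM in controls. For Hoxa5, Hoxa6 and Hoxc6 the groups overlapped, and the controls of Hoxa6 differed among themselves more than the group means did.

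Group 7 and 8 genes included several of the highest. Hoxa7, often switched on together with Hoxa9 in leukaemia, measured 13.2, 4.56 and 16.3 FPKM in I-PpoI mice, against 26.2, 34.2 and 23.2 FPKM in controls, and every I-PpoI library lay below every control. Hoxb7, whose promoter is the usual driver of transgenes in ureteric bud and collecting duct, came to 17.0, 14.7 and 10.6 FPKM in I-PpoI mice, against 15.03, 21.0 and 17.0 FPKM in controls. Collecting duct RNA was present in the libraries: its 12 markers summed to 135, 99.8 and 70.9 FPKM in I-PpoI mice and to 146, 164 and 155 FPKM in controls. Of these, the water channel Aqp2 stood at 50.9 to 96.0 FPKM in controls, and the part of duct cells in the Hoxb7 level was not tested. Hoxb8 measured 20.8, 9.06 and 9.26 FPKM in I-PpoI mice, against 14.4, 17.1 and 13.97 FPKM in controls. Hoxd8, which raises the lymphatic regulator PROX1 in human endothelial cells, came to 20.7, 14.8 and 15.1 FPKM in I-PpoI mice, against 24.3, 23.5 and 17.9 FPKM in controls. The groups overlapped for both, with I-PpoI mouse 1 the highest of its group. Hoxc8, a trunk skeleton and motor neuron gene, measured 3.30, 2.53 and 1.56 FPKM in I-PpoI mice, against 6.14, 4.57 and 3.69 FPKM in controls, with no overlap. Its values in I-PpoI mice 1 and 2 rest on 15 and 6 fragments.

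Group 9 genes, which act together in the forelimb bud and mammary gland, were expressed from all 4 clusters, and their summed control level was nearly constant although the single genes were not. Hoxb9 came to 20.1, 17.2 and 19.5 FPKM in I-PpoI mice, against 23.2, 24.4 and 30.0 FPKM in controls. Hoxd9 measured 9.92, 7.82 and 6.01 FPKM in I-PpoI mice, against 11.7, 11.7 and 8.09 FPKM in controls. The groups did not overlap for Hoxb9 and overlapped for Hoxd9. Hoxa9, which is needed for human endothelial cells to switch on E-selectin and endothelial nitric oxide synthase, came to 4.47, 3.42 and 3.402 FPKM in I-PpoI mice, against 7.96, 7.16 and 4.87 FPKM in controls. Hoxc9 measured 10.8, 10.8 and 2.50 FPKM in I-PpoI mice, against 3.54, 2.95 and 1.82 FPKM in controls. I-PpoI mice 1 and 2 lay above every control for Hoxc9, and I-PpoI mouse 3 lay within their range.

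Groups 10 and 11 are the posterior genes best known in the kidney, where group 10 acts in the stroma and group 11 in nephron progenitors. Hoxa10 came to 12.97, 16.1 and 6.79 FPKM in I-PpoI mice, against 10.3, 9.28 and 8.08 FPKM in controls. Hoxc10 measured 4.57, 4.38 and 4.64 FPKM in I-PpoI mice, against 7.49, 5.99 and 6.21 FPKM in controls. Hoxd10, which restrains angiogenesis in human endothelial cells, came to 1.37, 1.97 and 1.65 FPKM in I-PpoI mice, against 3.03, 3.83 and 2.96 FPKM in controls. For Hoxc10 and Hoxd10 every I-PpoI library lay below every control, and for Hoxa10 the groups overlapped with I-PpoI mouse 3 the lowest library. In I-PpoI mice 1 and 2 the values rest on 14 and 7 fragments for Hoxc10 and on 4 and 3 for Hoxd10. Hoxa11, 1 of the 3 group 11 genes of the metanephros, measured 6.27, 5.22 and 0.820 FPKM in I-PpoI mice, against 3.06, 1.21 and 1.93 FPKM in controls, again with I-PpoI mice 1 and 2 above and I-PpoI mouse 3 below the control range.

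**Figure D3:**
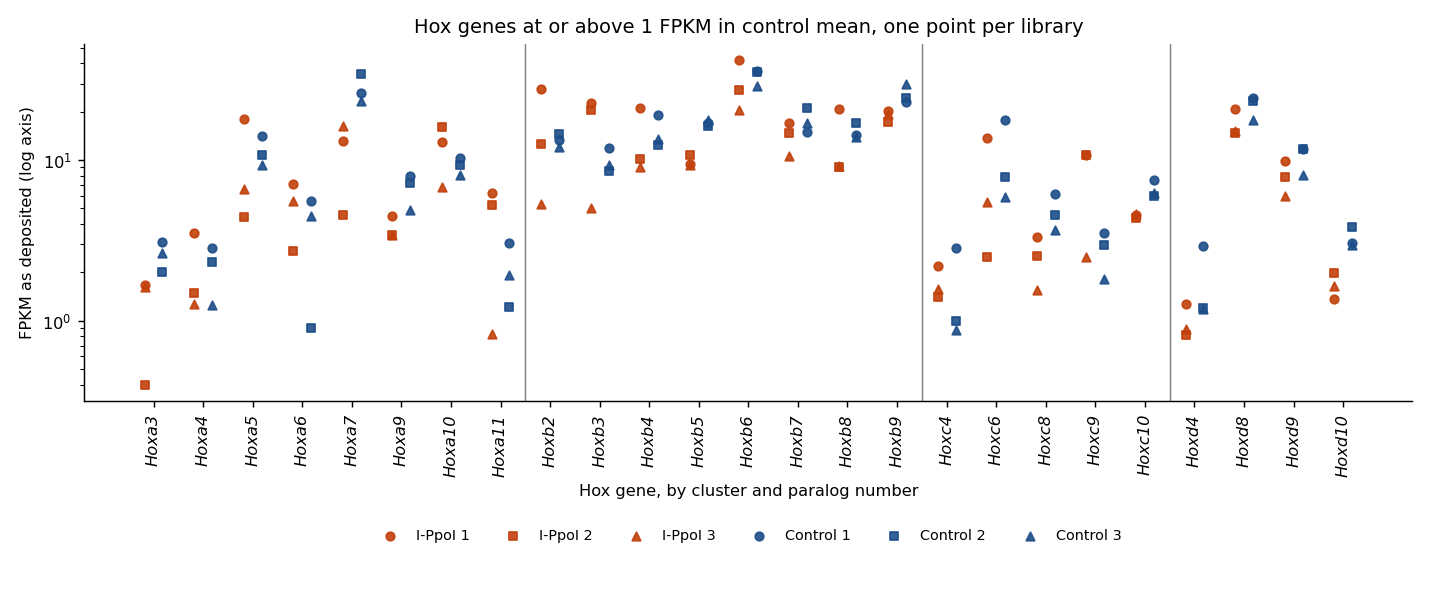
FPKM of the 25 Hox genes with a control mean of at least 1 FPKM, on a log axis, 1 point per library, with the 3 I-PpoI mice left of the 3 control mice for each gene. Vertical lines divide the clusters. Cluster B forms a plateau in controls, and I-PpoI mouse 3 (orange triangle) sits below the control range for 21 of the 25 genes.

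Ordered by control mean, the genes ran from Hoxb6 at 33.4 ± 3.73 FPKM through Hoxa7 (27.9 ± 5.69), Hoxb9 (25.9 ± 3.64) and Hoxd8 (21.9 ± 3.48) to Hoxc4 at 1.57 ± 1.10 FPKM (SD, n = 3). Of the 24 neighbouring pairs in that order, 23 had overlapping control ranges. The exception was Hoxa10 at 8.08 to 10.3 FPKM over Hoxa9 at 4.87 to 7.96 FPKM. Counted as fragments, Hoxa9 was the higher in each control, at 718, 562 and 461 against 544, 427 and 448 for Hoxa10. Their order thus depends on the exon lengths used, 5580 bases for Hoxa9 and 3270 for Hoxa10.

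Control mice differed among themselves in cluster C, whose share of Hox FPKM was 12.96%, 8.24% and 7.76% in control mice 1, 2 and 3. Control mouse 1 had the highest control value for 17 of the 25 genes, while over all genes with a control mean of at least 1 FPKM it was highest for 47.2%. The 17 were 7 of 8 genes in cluster A, 3 of 8 in B, 5 of 5 in C and 2 of 4 in D. Podocyte markers moved with this library: the 6 summed to 1390 FPKM in control mouse 1 and to 669 and 732 FPKM in control mice 2 and 3. Stroma and mural markers summed to 812, 669 and 605 FPKM in the same order. Their part in the cluster C values was not tested. Over the 25 genes the median coefficient of variation among controls was 20.4%, near the 19.3% of 9376 protein-coding genes in the same range of level.

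Promoter sequence was set beside the levels for a gene that was well expressed and a gene of the same cluster at 0. The printed windows run from 250 bases before to 50 after the RefSeq start, on the gene's strand and build GRCm38.p6, with the CG dinucleotides in capitals. Hoxd8 lies at chr2:74704365-74704664 and Hoxd13 at chr2:74667975-74668274, both on the plus strand.
Hoxd8: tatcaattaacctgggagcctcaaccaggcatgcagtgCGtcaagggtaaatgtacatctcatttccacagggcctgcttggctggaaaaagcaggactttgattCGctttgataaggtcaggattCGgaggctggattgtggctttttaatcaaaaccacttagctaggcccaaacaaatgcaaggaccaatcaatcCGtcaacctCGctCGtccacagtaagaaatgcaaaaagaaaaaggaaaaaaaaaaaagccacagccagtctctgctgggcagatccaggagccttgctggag
Hoxd13: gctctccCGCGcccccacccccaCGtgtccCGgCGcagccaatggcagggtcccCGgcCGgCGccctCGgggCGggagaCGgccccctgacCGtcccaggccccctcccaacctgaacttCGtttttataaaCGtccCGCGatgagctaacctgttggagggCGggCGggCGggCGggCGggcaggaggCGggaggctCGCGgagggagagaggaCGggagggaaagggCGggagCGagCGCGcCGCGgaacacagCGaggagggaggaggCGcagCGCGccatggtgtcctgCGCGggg
The Hoxd8 window holds 6 CG and the Hoxd13 window 37, and this pair does not stand for the family. Of the other genes at 0 in every library, the Hoxa13 window holds 45 CG, but those of Hoxd12 and Hoxb1 hold 13 and 10. Among expressed genes, the Hoxa7 window holds 9, while those of Hoxa5, Hoxa6, Hoxd10 and Hoxd9 hold 29, 26, 22 and 20. Over the 22 Hox genes with a RefSeq window (24 windows), the median was 14.5 CG, against 7 over 32851 windows of all genes. The CG numbers of genes at 0 and of expressed genes overlapped. The letters TATAAA, on either strand, were in 16.7% of Hox windows and 13.6% of all windows.

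The Hox levels of mice with endothelial I-PpoI were set against those of controls, and no Hox gene passed the test. Of 26 Hox genes whose mean over the 6 libraries reached 1 FPKM (the 25 above and Hoxa2), 0 had an adjusted p under 0.05 by limma on log2(FPKM + 1), Benjamini-Hochberg adjusted over 14962 genes. The background was the same, with 0.0% of all genes called. At an unadjusted p under 0.05 there were 2 Hox genes, both lower, while 36.5% of all genes passed that mark and 32.2% passed it as lower. The 2 were Hoxa7, at a log2 fold change of -1.36 (SE 0.498, limma adjusted p = 0.132), and Hoxb5, at -0.74 (SE 0.276, limma adjusted p = 0.133). A share of 2 in 26 is below the background, so it is no result about Hox genes.

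The median log2 fold change of the 26 was -0.34, with 7 above 0 and 19 below, against -0.65 over all genes, of which 71.6% were below 0, and -0.78 over the 11658 protein-coding genes tested, of which 84.6% were below 0. Dividing each library by its median-of-ratios factor moved the median of all genes to 0.02 and that of the Hox genes to 0.46, with 22 above 0 and 4 below, against 50.8% of all genes and 42.5% of protein-coding genes above 0. No Hox gene and no other gene was called on that scale either, and 1 Hox gene passed an unadjusted p under 0.05, Hoxc9 at 1.76 (SE 0.622, limma adjusted p = 0.318). On that scale 8.3% of all genes had an unadjusted p under 0.05. Limma-voom on recovered fragments also called 0 genes, with 528 of 14945 at an unadjusted p under 0.05 and no Hox gene among them. The sign of most Hox genes depended on the scaling, and 15 of the 26 changed sign between these scales. Hoxa7 kept a value below 0 on both, at -1.36 and -0.57.

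**Figure D4:**
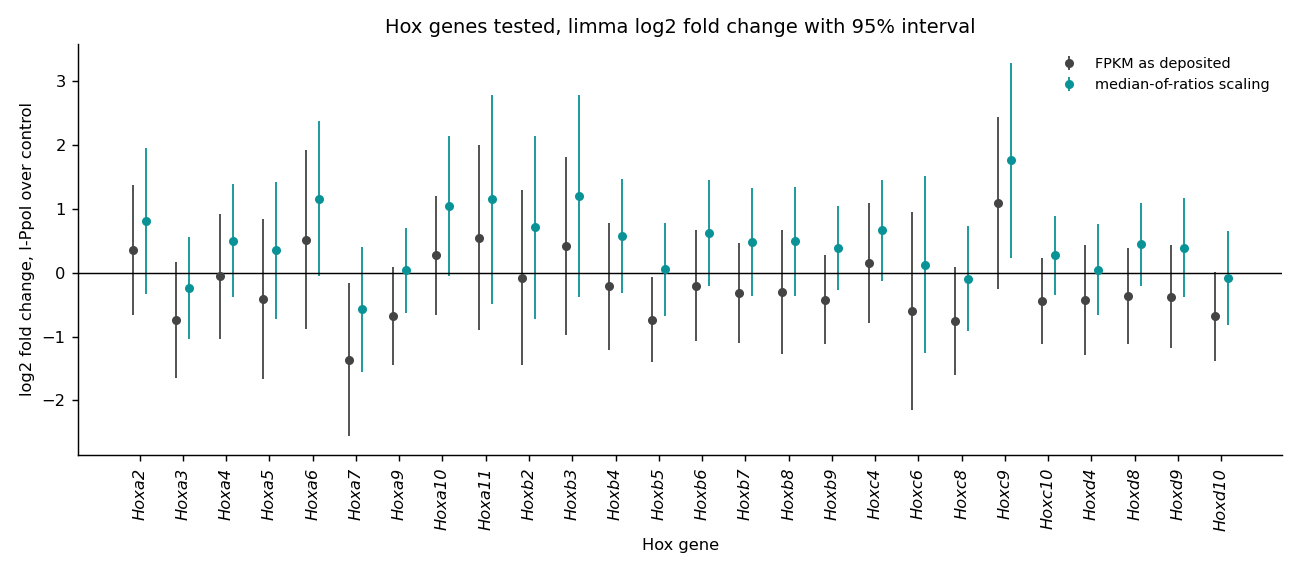
Log2 fold change of I-PpoI over control for the 26 Hox genes tested, with 95% intervals from limma, as deposited (grey) and after median-of-ratios scaling (teal). Values above 0 are higher in I-PpoI mice. The scaled values lie higher for every gene, with a median of 0.46 against -0.34, and nearly all intervals cross 0.

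The libraries were also compared by their ranges, without a model. Among the 25 genes with a control mean of at least 1 FPKM, 8 had every I-PpoI library below every control (Hoxa3, Hoxa7, Hoxa9, Hoxb5, Hoxb9, Hoxc8, Hoxc10 and Hoxd10) and 0 the reverse, against 53.6% and 0.645% of all genes at that level and 57.7% of protein-coding genes for the first. After scaling, 6 had every I-PpoI library above every control (Hoxa6, Hoxa10, Hoxb9, Hoxc9, Hoxc10 and Hoxd8) and 0 the reverse, against 5.04% and 12.1% of all genes and 4.77% of protein-coding genes for the first. Hoxb9 and Hoxc10 appear in both lists with opposite signs. In I-PpoI mouse 2, Hoxa3 and Hoxa6 had 2 fragments each, Hoxd10 had 3, Hoxc8 had 6 and Hoxc10 had 7. The separations of these genes thus rest on few fragments, and counting error was not tested. The scaled values of Hoxb9 were 23.3, 29.1 and 23.5 in I-PpoI mice against 16.0, 18.3 and 23.3 in controls. Its lowest I-PpoI value, 23.348, all but equals its highest control value, 23.3471, so its separation after scaling is a near tie. The scaled values of Hoxd8 were 24.0, 25.1 and 18.2 in I-PpoI mice against 16.7, 17.6 and 13.9 in controls.

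The I-PpoI libraries differed among themselves, and the calls with them. With I-PpoI mouse 3 left out, 4 Hox genes were called, against 56.1% of all genes: Hoxc9 at 1.67, Hoxa11 at 1.18, Hoxb3 at 1.06 and Hoxa7 at -1.68 on the log2 scale (limma adjusted p = 0.00511, 0.0261, 0.0196 and 0.0192). With scaling as well, 7 were called, all higher in I-PpoI mice, against 37.7% of all genes: Hoxc9 at 2.43, Hoxb3 at 1.90, Hoxa11 at 1.87, Hoxa10 at 1.43, Hoxb2 at 1.32, Hoxa2 at 1.29 and Hoxb6 at 0.90. With I-PpoI mice 1 and 2 left out, no Hox gene was called, as deposited or scaled, against 0.146% and 0.376% of all genes, and the scaled Hox median was 0.00. The lone I-PpoI library is then assumed to vary like the controls. As deposited, I-PpoI mouse 3 lay below the control range for 21 of 25 Hox genes and above it for 0, against 79.0% and 4.48% of all genes at that level. After scaling it lay below for 5, above for 6 and within for 14, against 28.3% below and 21.6% above over all genes. Rescaling all libraries to a common summed value called 2 Hox genes, Hoxa7 at -2.48 and Hoxb5 at -1.91, against 27.1% of all genes.

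Opposite-strand gene models set I-PpoI mice 1 and 2 apart, both within the Hox clusters and over the whole library. Antisense gene models took 14.7%, 10.02% and 0.119% of all fragments in I-PpoI mice 1, 2 and 3, against 0.197 to 0.225% in controls. The difference was thus not particular to the Hox clusters, and its cause was not tested. Gene models on the strand opposite to a Hox gene that overlap its exons numbered 10, and they lie over 10 Hox genes. Summed, they amounted to 720, 368 and 11.4 FPKM in I-PpoI mice 1, 2 and 3, against 21.6, 28.7 and 18.7 FPKM in controls. They took 86.0%, 82.7% and 12.996% of the fragments on these models and their 10 Hox genes in I-PpoI mice, against 12.2%, 16.0% and 12.5% in controls.

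Hoxb5os measured 254, 117 and 4.53 FPKM in I-PpoI mice, against 10.2, 10.01 and 7.88 FPKM in controls. Hoxb3os, which covers 52.9% of the exon bases of Hoxb3 and 27.3% of those of Hoxb2, came to 248, 114 and 1.61 FPKM in I-PpoI mice, against 3.08, 3.89 and 2.72 FPKM in controls. Hoxaas3, over Hoxa3 and Hoxa7, measured 122, 68.6 and 0.104 FPKM in I-PpoI mice, against 0.450, 0.738 and 0.429 FPKM in controls. Each was high in I-PpoI mice 1 and 2 and lower in I-PpoI mouse 3 than in any control. Hoxd3os1 over Hoxd4, Hoxaas2, 5730596B20Rik and Gm29430 over Hoxa3 or Hoxa4, and Hoxa11os over Hoxa11 likewise had their 2 highest values in I-PpoI mice 1 and 2, at 3.50 to 24.3 FPKM. In controls these 5 models stood at 0 to 3.14 FPKM.

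**Figure D5:**
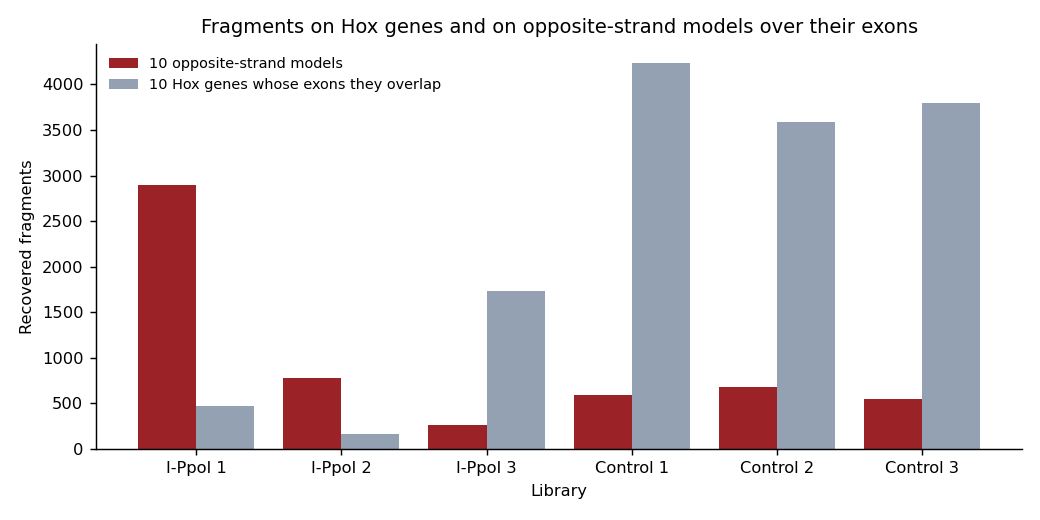
Recovered fragments in each library on the 10 gene models opposite to Hox exons and on the 10 Hox genes they overlap, I-PpoI mice left of control mice. The opposite-strand bar is the taller in I-PpoI mice 1 and 2 (2901 against 474 and 773 against 162 fragments) and the shorter in the other 4 libraries.

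In the same 2 libraries 68.2% and 70.6% of mitochondrial fragments lay on the minus strand, and fragments of the 39 Hox genes numbered only 1360 and 472 in them, while I-PpoI mouse 3 had 5871 and controls had 10455 to 13064. In these 2 libraries a Hox value and the value of a model across from it cannot be told apart as to which strand the RNA came from. Only 9 Hox genes tested have no opposite-strand gene within 5 kb: Hoxa9, Hoxb4, Hoxb8, Hoxb9, Hoxc4, Hoxc6, Hoxc8, Hoxc9 and Hoxc10. Among such genes alone, with scaling, all 9 lay above 0 with a median log2 fold change of 0.69, against 47.4% of 3717 genes above 0. None of the 9 was called (smallest limma adjusted p = 0.487), and 2 had an unadjusted p under 0.05, Hoxc9 at 2.02 and Hoxc4 at 0.85, against 9.6% of those genes. Choosing such genes does not change how the fragments of I-PpoI mice 1 and 2 were counted. Protein-coding genes of this kind had 244320 and 81083 fragments there, against 4136771 to 5097710 in controls.

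Hox proteins act with partner homeodomain proteins of the TALE class and are kept on or off by Trithorax and Polycomb complexes, and none of these genes was called either. The background for the pathway lists, all of whose genes are protein-coding, is the 84.6% of protein-coding genes below 0 as deposited (median -0.78) and the 57.5% below 0 after scaling (median -0.12). Among TALE and other DNA-binding cofactors, 8 of 10 were tested and all 8 lay below 0, with a median log2 fold change of -1.002. Meis2, a TALE partner, measured 19.3, 7.73 and 16.9 FPKM in I-PpoI mice, against 34.2, 29.3 and 31.5 FPKM in controls. Every I-PpoI library lay below every control, as for 57.7% of protein-coding genes with a control mean of at least 1 FPKM. In controls Meis2 reached the level of the top Hox genes. Pbx2 averaged 10.5 ± 3.85 FPKM in I-PpoI mice and 21.5 ± 4.80 FPKM in controls, and the chromatin protein Hmgb1 averaged 9.36 ± 5.47 FPKM in I-PpoI mice and 25.5 ± 5.001 FPKM in controls (SD, n = 3 each). After scaling the list's median was -0.34, with 6 of 8 below 0.

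Trithorax-group activators had 11 tested, 10 of them below 0, with a median of -0.83 as deposited and -0.13 after scaling. Of those most expressed in controls, the demethylase Kdm6b averaged 12.2 ± 2.86 FPKM in I-PpoI mice and 20.3 ± 4.71 FPKM in controls, and the menin gene Men1 averaged 12.1 ± 4.48 FPKM in I-PpoI mice and 15.9 ± 1.77 FPKM in controls. The core subunit genes Dpy30 and Wdr5 averaged 6.12 ± 2.81 and 3.77 ± 2.75 FPKM in I-PpoI mice, against 13.4 ± 2.62 and 12.5 ± 1.46 FPKM in controls (SD, n = 3 each). Polycomb repressors had 19 of 20 tested and 18 below 0, with a median of -0.85 as deposited and -0.24 after scaling. Phc2, of the Polycomb complex that compacts chromatin, averaged 15.03 ± 7.25 FPKM in I-PpoI mice and 34.4 ± 6.55 FPKM in controls. Rbbp7, Rbbp4 and the methyl-lysine reader Cbx6 averaged 10.5 ± 7.19, 6.55 ± 3.86 and 8.42 ± 1.88 FPKM in I-PpoI mice, against 29.9 ± 3.37, 20.1 ± 5.44 and 20.1 ± 3.28 FPKM in controls (SD, n = 3 each). Counts below 0 in the TALE, Trithorax and Polycomb lists were near the protein-coding background, so they are no result about these lists.

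The regulators that set the Hox code in the embryo were partly absent. Cdx1, Cdx2 and Cdx4, which activate central Hox genes in the embryo, were at 0 in every library. Retinoic acid, the other main inducer, acts through receptors, and Rarg averaged 27.6 ± 14.02 FPKM in I-PpoI mice and 56.7 ± 4.16 FPKM in controls. Rxrb averaged 8.21 ± 3.52 FPKM in I-PpoI mice and 17.9 ± 1.99 FPKM in controls (SD, n = 3 each). The looping factor Ctcf came to 10.9, 4.91 and 13.6 FPKM in I-PpoI mice, against 21.98, 15.3 and 19.96 FPKM in controls. The Polycomb-linked factor Yy1 measured 20.4, 12.8 and 11.5 FPKM in I-PpoI mice, against 22.2, 17.4 and 18.7 FPKM in controls. All 7 tested in this list lay below 0 as deposited and 4 of 7 after scaling, near the same background.

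Homeobox genes related to the clusters were mostly at or near 0. Of 10 ParaHox and cluster-linked genes, 6 were at 0 everywhere, among them Evx1 and Evx2, which lie just beyond the 5′ ends of clusters A and D. Only Meox1 was tested, at 19.3, 8.04 and 11.9 FPKM in I-PpoI mice, against 28.7, 33.8 and 27.7 FPKM in controls. Among 14 homeobox genes linked to endothelium 8 were tested and all lay below 0, and 4 did after scaling. The leading ones in controls were Irx3 at 24.2, 12.5 and 11.5 FPKM in I-PpoI mice, against 19.1, 15.3 and 20.3 FPKM in controls, and Hhex, a regulator of early vessel and blood development, at 6.04, 1.42 and 5.52 FPKM in I-PpoI mice, against 13.9, 12.4 and 10.1 FPKM in controls. Of the nephron progenitor partners of the group 11 genes, Eya1 and Six2 were at or below 0.163 FPKM in every library. Pax8 came to 3.09, 4.33 and 9.15 FPKM in I-PpoI mice, against 5.72, 6.23 and 8.21 FPKM in controls. Pax2 came to 6.46, 12.6 and 6.78 FPKM in I-PpoI mice, against 4.43, 5.78 and 8.45 FPKM in controls. The groups overlapped for both of these tubule genes. Wt1, which is also a podocyte marker, measured 6.94, 0.963 and 3.31 FPKM in I-PpoI mice, against 20.02, 5.57 and 4.24 FPKM in controls, with control mouse 1 the highest as for the other podocyte markers.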

How the data were processed

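Kidney cells selected by CD31 from 3 I-PpoI mice and 3 controls gave 6 libraries of total RNA, sequenced from paired ends over 100 cycles (per the labels' protocols), all with the batch label 1. The authors deposited FPKM per gene, normalized to fragments and exon length. The submitters' processing notes name DESeq2 1.28.13 and the builds mm10 and GRCm38, with the aligner, counter and strand setting not given in the sources used here. Of 55487 gene IDs, 55227 are in GENCODE M21.

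Deposited FPKM multiplied by exon bases and divided by the value of 1 fragment gave whole numbers for 98.5 to 98.6% of values under 1000 fragments, within 0.05. The test was limma 3.58.1 (R 4.3.3) on log2(FPKM + 1) of the deposited values, two-sided, over genes averaging 1 FPKM or more, with no block. P-values were Benjamini-Hochberg adjusted over all genes tested at a threshold of 0.05. The added 1 makes fold changes of low genes appear smaller. Scaled values are FPKM divided by median-of-ratios factors (0.861, 0.589 and 0.832 in I-PpoI mice, 1.29 to 1.45 in controls). Other tools were python 3.11.15, numpy 2.4.6, pandas 2.3.3 and matplotlib 3.10.9. The limma fit was checked on simulated counts with known changes. Apart from those changes every simulated library followed the control profile. The check therefore does not cover the strand and mitochondrial differences among the I-PpoI libraries.

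Hox genes with a control mean of at least 1 FPKM are named with their values, as are up to 4 members of each pathway list by control mean and opposite-strand models that overlap exons of named genes and reach 1 FPKM. Some genes that this rule names are not reported here. Other genes were picked for naming with values in view. The Hox set, lists and tests were chosen with earlier results of these data known.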

Additional observations from a re-analysis of the deposited data

Results flagged for a closer look

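Gene models across from Hox exons lie outside the Hox comparison, and their summed level was above every control in 2 of the 3 I-PpoI mice. It was 720 FPKM in I-PpoI mouse 1 and 368 FPKM in I-PpoI mouse 2, against 18.7 to 28.7 FPKM in the controls. In I-PpoI mouse 3 it was 11.4 FPKM, below every control. The share of mitochondrial fragments on minus-strand genes moved with it, at 68.2%, 70.6% and 0.0821% in I-PpoI mice 1, 2 and 3. That share was 0.0473 to 0.0664% in controls, and its part in the level was not tested. Antisense gene models took 14.7%, 10.02% and 0.119% of all fragments in I-PpoI mice 1, 2 and 3, against 0.197 to 0.225% in controls. High opposite-strand levels in I-PpoI mice 1 and 2 were thus not limited to the Hox clusters.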

How the results depend on the processing

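The count of Hox genes called was 0 as deposited and under both pseudocounts, both filters, protein-coding genes only, median-of-ratios scaling, strand-clear genes, limma-voom and the replicate block. It was 2 after rescaling to a common total (Hoxa7 at -2.48 and Hoxb5 at -1.91, against 27.1% of all genes called). With each library left out it ranged from 0 to 4 as deposited and from 0 to 7 with scaling, both maxima without I-PpoI mouse 3. Over all genes the count was 0 as deposited, 4302 after rescaling to a common total, 19 without I-PpoI mice 1 and 2, 49 with scaling as well, and 0 to 8470 (0 to 5695 with scaling) with each library left out. The scaled fits that leave libraries out or add the block were chosen after seeing the data. The Hox median was 0.46 with median-of-ratios scaling, -1.45 at a common total, 0.69 over strand-clear genes with scaling and 0.23 with limma-voom, and it ranged from -0.52 to -0.14 with each library left out.

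Of 415 alternative values of single Hox genes, 355 kept direction and call, 6 gained a call and 54 changed sign. With median-of-ratios scaling the log2 fold changes above 0 in place of below were 0.62 for Hoxb6, 0.50 for Hoxa4, 0.13 for Hoxc6, 0.39 for Hoxb9, 0.27 for Hoxc10, 0.45 for Hoxd8, 0.039 for Hoxa9, 0.35 for Hoxa5, 0.58 for Hoxb4, 0.054 for Hoxb5, 0.48 for Hoxb7, 0.40 for Hoxd9, 0.49 for Hoxb8, 0.71 for Hoxb2 and 0.051 for Hoxd4. Over strand-clear genes they were 0.16 for Hoxc8, 0.40 for Hoxc6, 0.69 for Hoxb9, 0.54 for Hoxc10, 0.30 for Hoxa9, 0.87 for Hoxb4 and 0.78 for Hoxb8. With limma-voom they were 0.42 for Hoxb6, 0.33 for Hoxa4, 0.086 for Hoxc6, 0.34 for Hoxb9, 0.24 for Hoxc10, 0.35 for Hoxd8, 0.17 for Hoxa5, 0.35 for Hoxb4, 0.19 for Hoxb7, 0.10 for Hoxd9, 0.32 for Hoxb8 and 0.22 for Hoxb2, and Hoxa11 was at -0.012. At a common total Hoxa10 was at -0.89, Hoxa2 at -0.37, Hoxa11 at -0.42, Hoxa6 at -0.38, Hoxb3 at -0.76 and Hoxc4 at -0.59. Without I-PpoI mice 1 and 2 Hoxa10 was at -0.39, Hoxc9 at -0.079, Hoxa11 at -0.71 and Hoxb3 at -0.85. With each library left out Hoxa4 ranged from -0.36 to 0.13, Hoxb6 from -0.47 to 0.025, Hoxb4 from -0.57 to 0.0047, Hoxb2 from -0.62 to 0.47, Hoxa6 from -0.037 to 0.86 and Hoxc4 from -0.037 to 0.48. The cause of these changes of sign was not tested.

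Hox genes at control level numbered 25 at 1 FPKM and 16 at 5 FPKM, and 25 to 27 with each control left out. Counted as fragments, not per length, cluster A held 26.9%, paralogs 1 to 3 14.7%, 4 to 8 59.5% and 9 to 13 25.8% of control Hox signal. Over members with no opposite-strand exon overlap, clusters A, C and D held 15.7%, 13.3% and 17.8%, and paralogs 1 to 3 and 9 to 13 held 0.484% and 32.6%. That set leaves out Hoxa3, Hoxb2 and Hoxb3, so the low share of paralogs 1 to 3 follows from the choice of members. With each control left out, clusters A to D held 23.5 to 24.4%, 50.9 to 55.1%, 8.00 to 10.6% and 13.1 to 14.2%, and the 3 paralog ranges 9.66 to 9.96%, 65.4 to 66.9% and 23.5 to 24.8%. Same-numbered libraries correlated at 0.09, 0.06 and -0.02 in their deviations, and libraries of unlike number at -0.11 to 0.03. I-PpoI mice 1 and 2 correlated best with their own number, and I-PpoI mouse 3 did not. The labels tie no number to a litter or day, and correlations this small cannot settle whether one is shared. With the replicate block 0 Hox genes and 0 genes were called. Depth limits I-PpoI mice 1 and 2, where the 39 Hox genes had 1360 and 472 fragments.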
